A study of Danio rerio with 10 samples.

Results

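The regions described here are stretches of the zebrafish genome that carried both trimethylated lysine 4 (H3K4me3) and trimethylated lysine 27 (H3K27me3) of histone H3 in injured eye muscle, but not both in uninjured muscle. A region of the deposited H3K4me3 table was taken when it overlapped, by at least 1 bp, a called interval of each mark at 9 and at 18 hours post-injury (hpi), and did not overlap intervals of both marks in control. The rule found 596 of 18746 H3K4me3 regions, or 3.18% (95% exact binomial interval 2.93 to 3.44). In control, 357 of the 596 lacked an H3K27me3 interval, 230 lacked an H3K4me3 interval and 9 lacked both. The regions were chosen by the called H3K4me3 and H3K27me3 intervals, so what follows on those 2 marks is a description with no test. Acetylated lysine 27 (H3K27Ac) was not used to choose them.

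H3K4me3 is placed at promoters by enzymes of the SET1 and trithorax families and goes with promoters that are open to transcription. H3K27me3 is placed by Polycomb repressive complex 2 and goes with genes that are kept silent. Promoters that carry both, called bivalent, are best known from embryonic stem cells, where many belong to developmental regulators. H3K27Ac sits on the same lysine as H3K27me3, so a single histone tail cannot carry both, and it marks active promoters and enhancers.

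Chromatin was immunoprecipitated from the lateral rectus, a muscle that turns the eye outward, of sexually mature adult zebrafish. The control group was pooled from 119 uninjured fish, the 9 hpi group from 192 fish and the 18 hpi group from 200 fish, and the injury was the surgical removal of about 50% of the muscle in both eyes. The growth protocol names wild-type and transgenic α-actin::EGFP fish of 4 to 18 months, the design text names only wild-type fish, and which fish made up a pool is not stated. With 1 library per mark and time there are no replicates, and no p-value is given.

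Signal is the average tag pileup, the mean number of overlapping sequenced fragments over a region, and "higher" or "lower", where used of a mark, stands for a ratio of 2 or more between pileups to which 1 was added. For H3K27me3 and H3K27Ac the signal is that of the partner, the merged region of that mark with the longest overlap, over its whole length, which can reach beyond the H3K4me3 region, whereas calls refer to the H3K4me3 region itself. Sequencing depth is unknown. A pool holds many cells of several types, so both marks may lie on the same or on different cells, and a change in the share of a cell type cannot be told apart from a change of the mark within cells. Over the start regions of 13 leukocyte marker genes, 9 of which had one, the summed H3K4me3 average was 60.4 (control), 115 (9 hpi) and 144 (18 hpi). Over the 15 start regions of muscle markers it was 238 (control), 141 (9 hpi) and 152 (18 hpi). None of 12 retina markers had an H3K4me3 start region, and 7 had one of H3K27me3. Only pde6a had an H3K27Ac start region, with averages of 17.2 (control), 15.2 (9 hpi) and 9.1 (18 hpi).

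Gain of the double mark was set beside the other patterns. Both marks were called at all 3 times in 4461 regions, in control only in 936, at 9 hpi only in 429 and at 18 hpi only in 471. A further 489 had both in control and at 9 hpi but not at 18 hpi, and 418 had both in control and at 18 hpi but not at 9 hpi. Double marking in control only was thus more frequent by count than double marking at both later times only. The patterns are not alike, since the second needs calls at both later times and the first only in control. By mark, 357 regions had H3K27me3 intervals at both later times and none in control, against 635 double-marked regions with the reverse. For H3K4me3 the numbers were 230 and 227. The whole H3K27me3 list was itself larger in control, with 15593 (control), 15031 (9 hpi) and 14760 (18 hpi) intervals. It also covered more bases in control than at either later time. The part of list size in the counts of 357 and 635 was not tested.

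**Figure D1:**
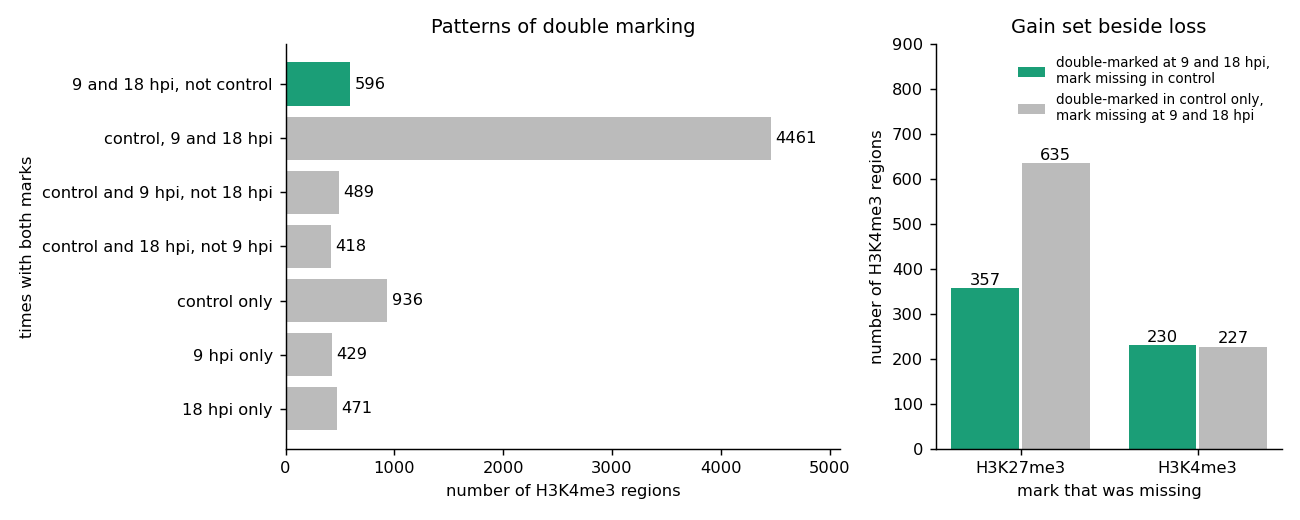
Left, number of H3K4me3 regions (x axis) for each set of times at which both H3K4me3 and H3K27me3 intervals were called (y axis), with the 596 regions double-marked at 9 and 18 hpi but not in control in green; the 10946 regions double-marked at no time are left out. Right, number of regions by the mark that was missing, in control (green) or at 9 and 18 hpi (grey): 357 and 635 for H3K27me3, 230 and 227 for H3K4me3.

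Signal of the missing mark was often present in control without a call, more so for H3K27me3 than for H3K4me3. Among the 230 regions without a control H3K4me3 interval, the control average still reached 9.16, the 5th percentile of called control intervals, in 22. Among the 357 without a control H3K27me3 interval, the control average of the overlapping H3K27me3 region reached the 5th percentile of control intervals, 6.21, in 197. Of the 283 among these whose H3K27me3 region held no control interval even outside the H3K4me3 region, 135 reached it. A control interval of the missing mark lay within 1000 bp of 69 of the 596 regions. The term double-marked only after injury therefore describes calls, and for H3K27me3 the signal in control was often that of a weak called interval.

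At the edge of the rule, 25 of the 596 regions rested on an overlap of 200 bp, 1 window of the grid on which intervals were called. Those with the highest H3K4me3 signal were at zgc:153343, tspan3a and foxp1b. Another 861 regions lacked a single required interval, and in 137 of them that interval lay within 1000 bp. Just outside were usp7, mark3 and vipas39, where the H3K27me3 interval at 18 hpi ended exactly at the region's edge, a gap of 0 bp.

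The intervals of both marks lay on the same bases in most cases. They overlapped each other at both 9 and 18 hpi in 561 of the 596 regions (94.1%), and the median stretch under both was 1600 bp at each time. A promoter was annotated in 515 regions (86.4%, interval 83.4 to 89.1), against 83.1% of all H3K4me3 regions, and a gene start lay within 1000 bp of the middle of the region in 48.3%. A CpG island was annotated in 156 regions (26.2%, interval 22.7 to 29.9), against 36.3% of the regions double-marked throughout and 22.8% of all H3K4me3 regions. The 596 regions had 590 distinct H3K27me3 partners, and 12 of them shared one. They lay on all 25 chromosomes, with between 1.40% of the H3K4me3 regions on chromosome 22 and 4.59% on chromosome 24.

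The 230 regions that lacked H3K4me3 in control were short, weak H3K4me3 sites that overlapped, in part or whole, H3K27me3 domains whose signal did not change by 2-fold. Their median length was 1800 bp, against 4000 bp for the regions that lacked H3K27me3, and the median partner was 8400 bp long. The median H3K4me3 average was 5.61 (control), 10.6 (9 hpi) and 11.2 (18 hpi), while called H3K4me3 intervals had a median of 30.8 (control), 28.8 (9 hpi) and 31.7 (18 hpi) in the same libraries. The H3K27me3 average of the partner had a median of 10.0 (control), 10.1 (9 hpi) and 9.81 (18 hpi), and no partner was 2-fold higher or lower. Over all H3K27me3 regions, 2-fold increases made up 0.811% at 9 hpi and 0.999% at 18 hpi, and 2-fold decreases 0.171% at 9 hpi and 0.304% at 18 hpi. H3K27me3 was below control at both times in 106 of the 230 partners and above it at both times in 75. Short length and weak H3K4me3 were not particular to the 230 regions. In 421 regions that gained H3K4me3 without H3K27me3 the median length was also 1800 bp. Their median H3K4me3 average was 4.70 (control), 9.45 (9 hpi) and 10.6 (18 hpi).

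H3K4me3 was at least 2-fold higher in 78 of the 230 regions at 9 hpi and in 82 at 18 hpi, with 57 at both. The background over all H3K4me3 regions was 3.28% higher and 4.10% lower at 9 hpi, and 4.80% higher and 4.02% lower at 18 hpi. Nothing is read from the difference, since the rule used these libraries. With a pseudocount of 5 in place of 1 the counts were 25 and 45. The average was above control at both times in 222 of the 230. When only intervals in the upper 75% of each later list were accepted, 10 of the 230 regions were left.

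**Figure D2:**
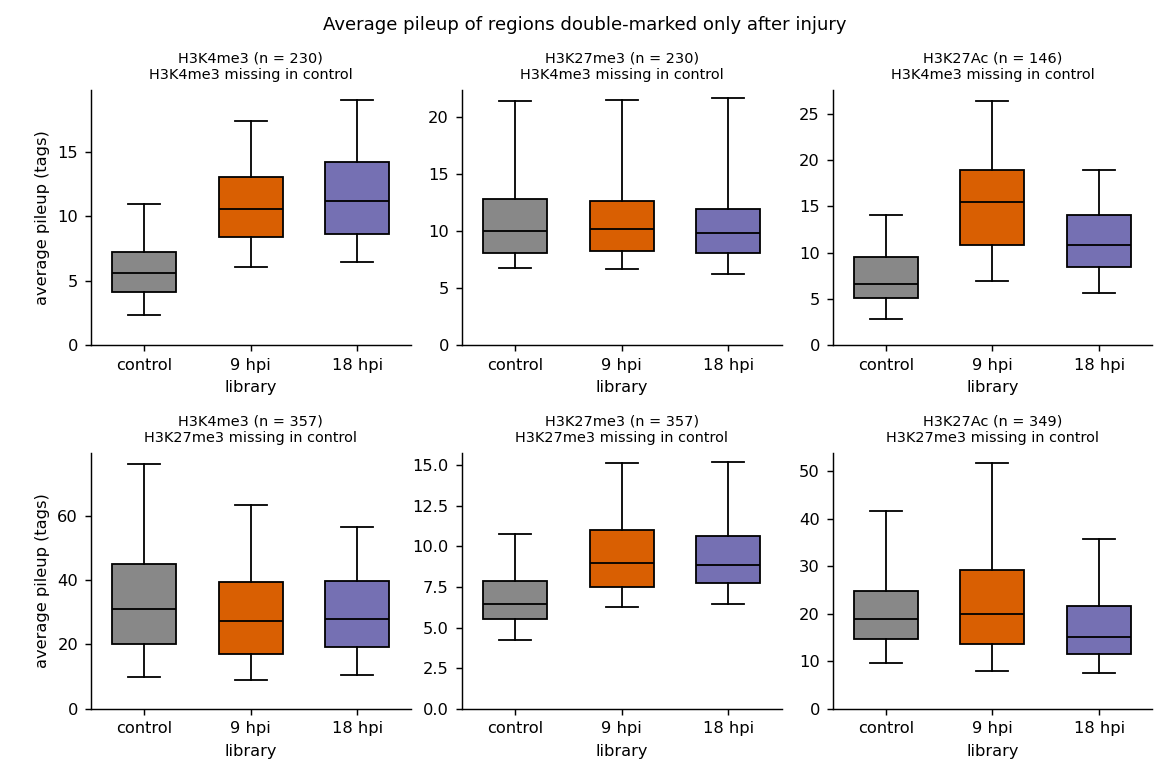
Average pileup (y axis, tags, starting at 0) of H3K4me3, of the H3K27me3 partner and of the H3K27Ac partner in the control, 9 hpi and 18 hpi libraries (x axis). Top row, regions missing H3K4me3 in control; bottom row, regions missing H3K27me3 in control. Boxes span the quartiles over regions with the median as a line, and whiskers the 5th to 95th percentiles; these are spreads over regions, not over samples. In the top row the H3K4me3 median is 5.61 (control), 10.6 (9 hpi) and 11.2 (18 hpi) while H3K27me3 stays near 10, and in the bottom row the H3K27me3 median is 6.44 (control), 8.96 (9 hpi) and 8.85 (18 hpi).

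The greatest H3K4me3 gains in H3K27me3 domains were named by the smaller of the changes at both times. The region of LOC570404 (chromosome 16, 12716801 to 12722800), whose RefSeq symbol is il11a, the gene of the cytokine interleukin-11, had H3K4me3 averages of 3.65 (control), 21.3 (9 hpi) and 18.5 (18 hpi), log2 changes of 2.26 at 9 hpi and 2.06 at 18 hpi. Its H3K27me3 average was 16.5 (control), 15.9 (9 hpi) and 16.0 (18 hpi). Of its 6000 bp, no base lay under an H3K27Ac interval in control, 5600 bp did at 9 hpi and 6000 bp at 18 hpi. Its H3K27Ac partner is 14000 bp long and also holds a control interval beyond the H3K4me3 region, and the average over that whole partner was 11.5 (control), 19.1 (9 hpi) and 13.3 (18 hpi), under 2-fold. At m17 (chromosome 5, 31554401 to 31559000), a fish cytokine gene of the interleukin-6 family, H3K4me3 was 1.53 (control), 9.20 (9 hpi) and 14.6 (18 hpi), and H3K27Ac was 3.66 (control), 19.7 (9 hpi) and 14.0 (18 hpi). Both marks were thus higher at both times at m17, beside an H3K27me3 average of 9.33 (control), 9.71 (9 hpi) and 7.83 (18 hpi) over a partner that reaches beyond the region. Within its 4600 bp, H3K27me3 intervals covered 1800 bp (control), 2600 bp (9 hpi) and 200 bp (18 hpi), and at 18 hpi no base lay under both H3K4me3 and H3K27me3 intervals. Another member of that family, clcf1 (chromosome 14, 21724801 to 21730000), was picked out after its values were seen. Its H3K4me3 was 3.99 (control), 10.1 (9 hpi) and 18.1 (18 hpi), its H3K27Ac 2.62 (control), 9.96 (9 hpi) and 10.7 (18 hpi), both marks higher at both times, and its H3K27me3 did not differ by 2-fold.

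The region of ccr12b.2 (chromosome 24, 533601 to 539400), a chemokine receptor gene beside related genes, had H3K4me3 averages of 2.61 (control), 16.5 (9 hpi) and 14.1 (18 hpi) and H3K27Ac averages of 6.81 (control), 18.1 (9 hpi) and 10.8 (18 hpi). H3K27me3 over it was 8.74 (control), 7.98 (9 hpi) and 7.78 (18 hpi). At slc2a6, a sugar transporter gene, H3K4me3 was 2.49 (control), 13.2 (9 hpi) and 18.4 (18 hpi) and H3K27Ac 4.36 (control), 18.2 (9 hpi) and 10.4 (18 hpi). At aldh8a1, an aldehyde dehydrogenase gene, H3K4me3 was 2.38 (control), 13.7 (9 hpi) and 14.4 (18 hpi), and H3K27Ac 6.08 (control), 16.6 (9 hpi) and 8.62 (18 hpi), higher at 9 hpi only. At cx32.2, a connexin gene, H3K4me3 was 1.59 (control), 8.47 (9 hpi) and 14.6 (18 hpi), whereas H3K27Ac, at 6.70 (control), 12.2 (9 hpi) and 9.37 (18 hpi), stayed under 2-fold. The region of zgc:153639 had 1.22 (control), 8.40 (9 hpi) and 8.24 (18 hpi) for H3K4me3 and no H3K27Ac interval at any time. An interval of 3000 bp on chromosome 17 (27115401 to 27118400) with no gene listed had 2.91 (control), 13.5 (9 hpi) and 15.2 (18 hpi). In the 10 regions named by this rule, which include sb:cb1058 and mir21-2, no H3K27me3 partner changed by 2-fold.

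H3K27Ac, which the rule did not use, was called more often after injury where H3K4me3 had been missing. In control 62 of the 230 regions (interval of the share 21.3 to 33.2%) overlapped an H3K27Ac interval, 137 (59.6%, interval 52.9 to 66.0) did so 9 h after injury, and 104 (45.2%, interval 38.7 to 51.9) after 18 h. The whole H3K27Ac lists held 35692 (control), 34393 (9 hpi) and 28964 (18 hpi) intervals. H3K27Ac intervals were called only after injury in 84 of the 230, and in 155 of 421 regions that gained H3K4me3 without H3K27me3. The rise in calls is thus not particular to the 230 regions. Shares at each time over all H3K4me3 regions are not set beside these counts, so the rise is not read as a trait of the 230 regions. The list sizes above and the partner count below are other measures and do not replace those shares. Of all 18746 H3K4me3 regions, 16535 had an H3K27Ac partner. Of the 230, 146 had an H3K27Ac partner region. Of these 146, 73 (50.0%, interval 41.6 to 58.4) were at least 2-fold higher at 9 hpi and 38 (26.0%, interval 19.1 to 33.9) at 18 hpi, 35 of them at both times. None was lower at 9 hpi and 2 were lower at 18 hpi. A partner exists only where an H3K27Ac interval was called at some time, and 84 of the 146 regions overlapped such an interval only after injury. In 2 of the 84 the partner held a control interval elsewhere. These shares are thus in part set by the choice of regions with a partner. Of those 84, 54 were higher at 9 hpi and 30 at 18 hpi. Of the 62 with an H3K27Ac interval in control, 19 (30.6%, interval 19.6 to 43.7) were higher at 9 hpi and 8 (12.9%, interval 5.74 to 23.9) at 18 hpi. Over all 230 regions, those without a partner included, the shares higher were 31.7% at 9 hpi and 16.5% at 18 hpi. Over all H3K27Ac regions the shares were 13.0% higher and 14.4% lower at 9 hpi, and 7.90% higher and 18.2% lower at 18 hpi. Over all H3K4me3 regions with an H3K27Ac partner, 11.5% were higher at 9 hpi and 3.61% at 18 hpi. The 146 partners had median H3K27Ac averages of 6.59 (control), 15.5 (9 hpi) and 10.8 (18 hpi). With a pseudocount of 5 the counts of higher regions were 41 and 14. The median change over all H3K27Ac regions of sufficient signal was 0.23 at 9 hpi and -0.16 at 18 hpi on the log2 scale. After centring on these medians, 56 and 52 of the 146 were higher.

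Regions that gained H3K4me3 without H3K27me3 were set beside these, and the result depended on which regions were counted. The class holds 421 regions that had H3K4me3 intervals at both later times, none in control and no H3K27me3 interval at any time. Among regions with an H3K27Ac partner, 73 of 146 (50.0%) were higher at 9 hpi in H3K27me3 domains, against 182 of 337 (54.0%, interval 48.5 to 59.4) without H3K27me3. Among all regions the shares were 73 of 230 (31.7%, interval 25.8 to 38.2) and 182 of 421 (43.2%, interval 38.4 to 48.1). Among regions with an H3K27Ac interval in control they were 19 of 62 (30.6%) and 65 of 182 (35.7%). At 18 hpi the shares among regions with a partner were 26.0% in H3K27me3 domains and 21.7% (interval 17.4 to 26.4) without H3K27me3, and among all regions 16.5% and 17.3%. The 2 classes differed in annotation: a promoter was listed in 82.2% against 59.9%, and a CpG island in 18.3% (interval 13.5 to 23.9) against 3.80% (interval 2.19 to 6.10). No H3K27Ac interval was called at any time in 84 of the 230 (36.5%, interval 30.3 to 43.1), against 84 of the 421 (20.0%, interval 16.2 to 24.1). In the 227 regions that were double-marked in control and later kept only H3K27me3, H3K27Ac was lower in 27 of 77 (35.1%) at 9 hpi and in 39 (50.6%) at 18 hpi. These libraries come from the same pools, so the classes are not independent samples, and no difference between them was tested.

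**Figure D3:**
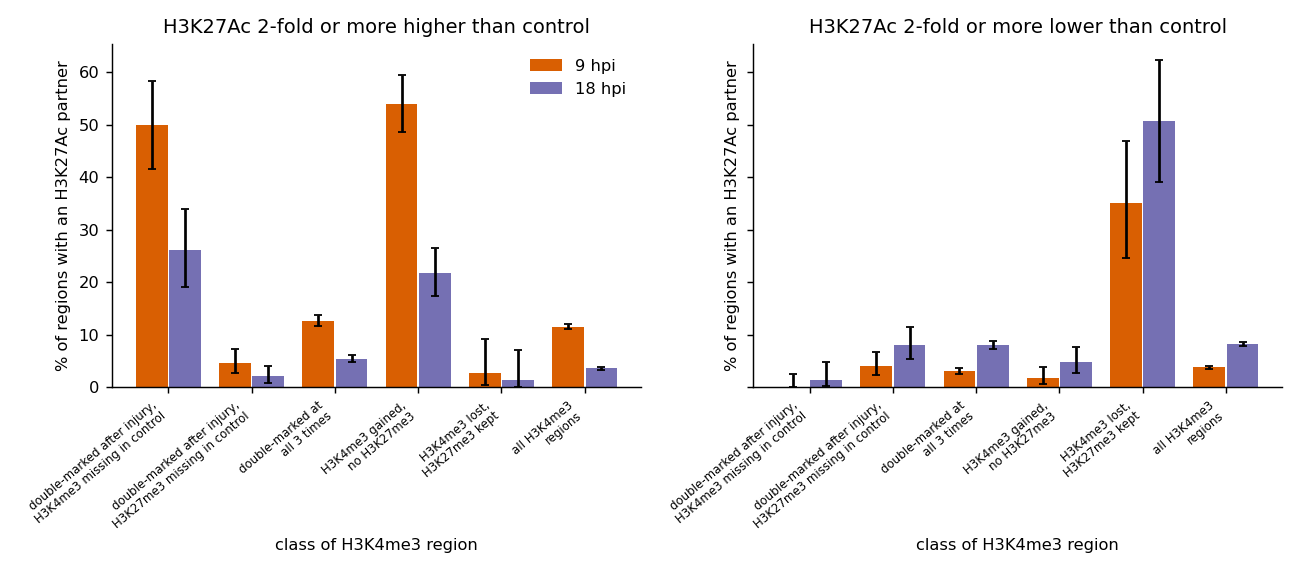
Share of regions with an H3K27Ac partner (y axis, %) whose H3K27Ac was 2-fold or more higher (left) or lower (right) than control at 9 hpi and 18 hpi, for 6 classes of H3K4me3 region (x axis). Bars start at 0 and error bars are 95% exact binomial intervals, which cover counting error only. Regions double-marked after injury that lacked H3K4me3 in control reach 50.0% and 26.0% higher, beside 54.0% and 21.7% for regions that gained H3K4me3 without H3K27me3; regions with no H3K27Ac partner are left out.

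The greatest H3K27Ac increases all lay in regions that had lacked H3K4me3. Of the 146 such regions with a partner, 84 overlapped an H3K27Ac interval only after injury, against 12 of 349 that had lacked H3K27me3. The partners at kitlgb, wnt2bb, sb:cb1058, c1ql3b and si:dkey-10p5.7 held no control interval. Where the greatest increases lay is thus in part set by the choice of regions with a partner, and nothing is read from it. At kitlgb (chromosome 4, 9506601 to 9511200), a gene of Kit ligand, the factor that signals through the Kit receptor, the H3K27Ac average was 1.22 (control), 17.2 (9 hpi) and 11.7 (18 hpi), log2 changes of 3.03 at 9 hpi and 2.52 at 18 hpi. That partner was only 1000 bp long, and an H3K27Ac interval was called in it at 9 hpi only. The control average of the kitlgb partner was the lowest of all 501 H3K27Ac partners. H3K4me3 at kitlgb was 4.22 (control), 8.55 (9 hpi) and 8.94 (18 hpi), under 2-fold, and H3K27me3 11.7 (control), 12.5 (9 hpi) and 10.8 (18 hpi). At wnt2bb (chromosome 8, 27723801 to 27726200), a Wnt ligand gene, H3K27Ac was 1.56 (control), 14.8 (9 hpi) and 15.3 (18 hpi) and H3K4me3 7.86 (control), 26.9 (9 hpi) and 41.6 (18 hpi). H3K27me3 over wnt2bb was 9.03 (control), 12.6 (9 hpi) and 11.5 (18 hpi), so that all 3 marks were called there at both times after injury. At sb:cb1058, H3K27Ac was 3.15 (control), 29.2 (9 hpi) and 22.1 (18 hpi) and H3K4me3 3.44 (control), 15.2 (9 hpi) and 23.9 (18 hpi). At c1ql3b, which codes for a secreted C1q-like protein, H3K27Ac was 2.65 (control), 24.6 (9 hpi) and 13.5 (18 hpi) and H3K4me3 4.79 (control), 13.1 (9 hpi) and 11.8 (18 hpi). The other named regions, si:dkey-10p5.7 and slc43a2b, a gene of an amino acid transporter family, had H3K27Ac of 24.7 and 18.6 at 9 hpi, against 4.27 and 3.42 in control.

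**Figure D4:**
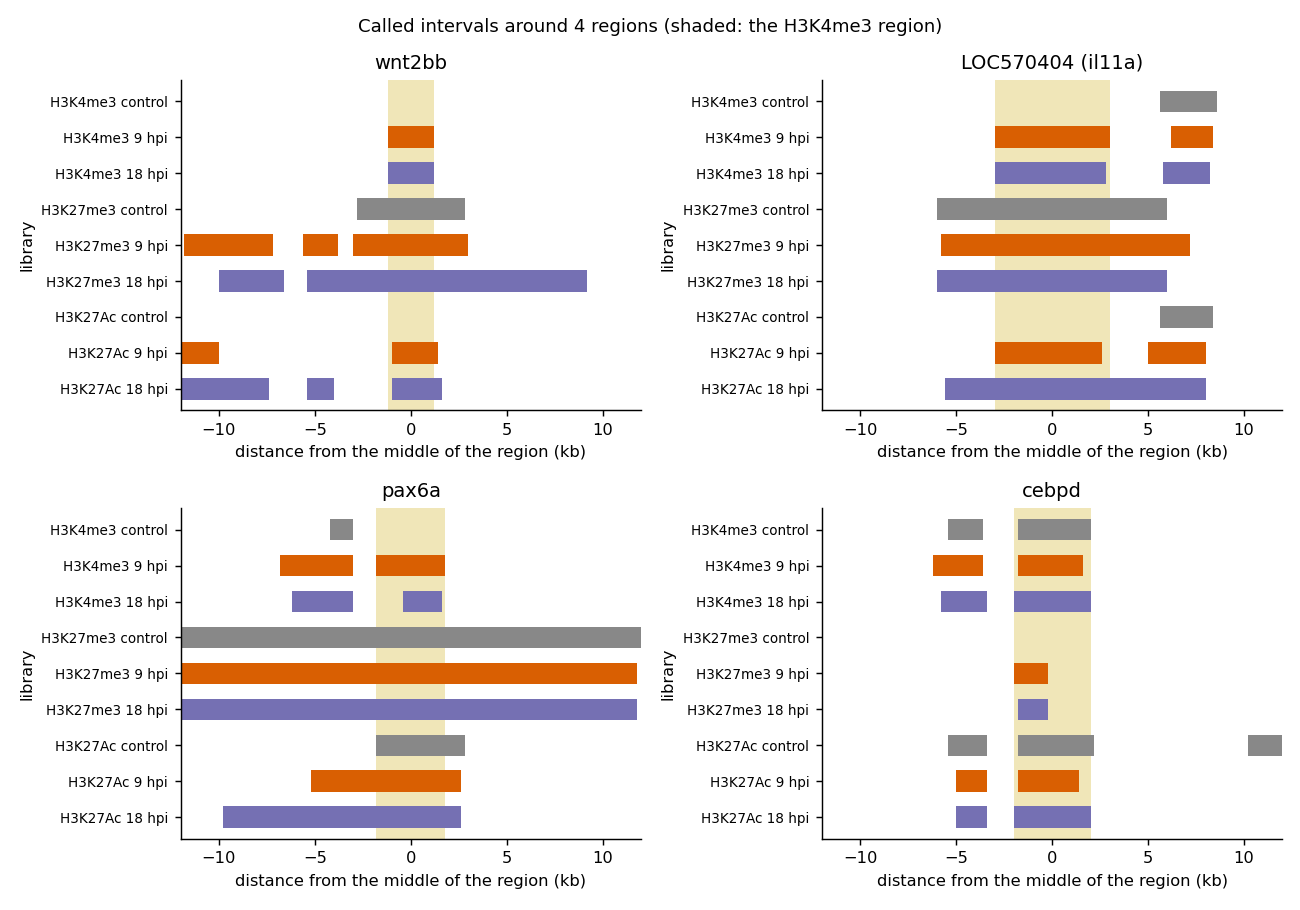
Called intervals of each mark (rows) in the control (grey), 9 hpi (orange) and 18 hpi (purple) libraries around 4 regions double-marked after injury; the x axis is the distance in kb from the middle of the H3K4me3 region, which is shaded. At wnt2bb, LOC570404 (il11a) and pax6a the shaded region has no control H3K4me3 interval inside an H3K27me3 interval that is present at all 3 times, whereas at cebpd it has a control H3K4me3 interval and a short H3K27me3 interval at 9 and 18 hpi only.

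At some developmental transcription factor genes an H3K4me3 interval was called only after injury, mostly in strong H3K27me3 domains. The H3K4me3 signal there was often weak. Called H3K4me3 intervals had a 5th percentile of 8.72 at 9 hpi and 9.06 at 18 hpi. The region average lay below it at both times at pax7a, and at 18 hpi at pax6a and isl2b. Of 86 H3K4me3 regions at homeobox genes outside the HOX clusters, 4 were double-marked only after injury (4.65%, interval 1.28 to 11.5, near the 3.18% of all regions), and all 4 had lacked H3K4me3, while 48 of the 86 were double-marked at all 3 times. None of 9 HOX gene regions was among them. At pax6a (chromosome 25, 14950201 to 14953800), a regulator of eye and brain development, H3K4me3 was 5.73 (control), 12.9 (9 hpi) and 8.64 (18 hpi), higher at 9 hpi only, beside H3K27me3 of 30.6 (control), 27.7 (9 hpi) and 25.4 (18 hpi). An H3K27Ac interval already covered the whole pax6a region in control, and did so at both later times. A control H3K4me3 interval lay outside it, from -4.2 to -3 kb relative to its middle. At isl2b, a regulator of neurons, H3K4me3 was 4.24 (control), 10.8 (9 hpi) and 7.78 (18 hpi), higher at 9 hpi only, and H3K27Ac was 2.76 (control), 8.48 (9 hpi) and 9.00 (18 hpi). At pax7a (chromosome 11, 40652001 to 40656000), the gene of a factor that marks muscle stem cells, H3K4me3 was 1.63 (control), 5.51 (9 hpi) and 4.92 (18 hpi) beside H3K27me3 of 27.3 (control), 24.0 (9 hpi) and 23.4 (18 hpi), and no H3K27Ac interval was called. At pbx3a the H3K4me3 average was 12.8 (control), 21.2 (9 hpi) and 20.6 (18 hpi) and H3K27me3 10.0 (control), 14.6 (9 hpi) and 11.2 (18 hpi).

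The other lists of developmental factors held 3 of 65 regions (4.62%) for SOX, T-box, forkhead and GATA genes and 5 of 91 (5.49%) for basic helix-loop-helix and zinc finger genes, also near 3.18%. Of these 8, 4 lacked H3K4me3 in control (tcf21, tbx20, neurod6b and neurog3), and 4 had H3K4me3 in control and lacked H3K27me3 (sox11b, foxp1b, bhlha15 and klf1). At tcf21, a factor of fibroblasts and other mesenchymal cells, H3K4me3 was 4.22 (control), 11.9 (9 hpi) and 10.2 (18 hpi), higher at both times, beside H3K27me3 of 31.3 (control), 32.6 (9 hpi) and 31.6 (18 hpi). The heart factor gene tbx20 had H3K4me3 of 4.86 (control), 6.60 (9 hpi) and 6.41 (18 hpi), under 2-fold. At neurod6b, a neural factor gene, it was 8.64 (control), 13.0 (9 hpi) and 14.5 (18 hpi), and at neurog3, a factor of endocrine and neural precursors, 3.55 (control), 6.11 (9 hpi) and 6.61 (18 hpi), also under 2-fold. The averages at tbx20 and neurog3 were below the 5th percentile of called H3K4me3 intervals at both times after injury. H3K27me3 in control at pax6a, isl2b, pax7a, tcf21, tbx20, neurod6b and neurog3 lay between 26.8 and 35.4, in the strongest 58 of the 230 regions, which started at 12.8. At sox11b, the gene of a factor of neural precursors, H3K4me3 was 75.8 at 18 hpi, against 102 in control, with no 2-fold change at either time, and H3K27me3 5.58 (control), 11.0 (9 hpi) and 10.8 (18 hpi), under 2-fold. The forkhead gene foxp1b had H3K27me3 of 8.59 (control), 9.35 (9 hpi) and 10.1 (18 hpi). At bhlha15, a factor gene of secretory cells, H3K4me3 was 7.86 (control), 15.2 (9 hpi) and 11.2 (18 hpi) and H3K27Ac 8.46 (control), 15.6 (9 hpi) and 18.4 (18 hpi), higher at 18 hpi. Among the regions that lacked H3K4me3, in 4 groups of H3K27me3 strength in control, weakest first, H3K27Ac was higher at 9 hpi in 21 of 39, 19 of 41, 19 of 35 and 14 of 31 regions with a partner, and CpG islands lay in 7, 8, 12 and 15 regions of 57 or 58.

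Cell type markers also appeared. At mpeg1.1 (chromosome 8, 29701401 to 29705000), a macrophage gene, H3K4me3 was 6.32 (control), 14.6 (9 hpi) and 17.0 (18 hpi), higher at both times, H3K27me3 was 21.5 (control), 26.3 (9 hpi) and 25.5 (18 hpi), and H3K27Ac was 7.57 (control), 10.2 (9 hpi) and 9.83 (18 hpi). At cdh5, the gene of the endothelial VE-cadherin, H3K4me3 was 4.43 (control), 8.28 (9 hpi) and 9.05 (18 hpi). These were 1 of 9 leukocyte and 1 of 8 endothelial start regions, the muscle marker list had 1 of 13, pax7a, and the fibroblast and tendon list 2 of 7, tcf21 and dcn. Lists this short cannot be read against the 3.18% of all regions. The erythrocyte, nerve and Schwann cell, and epidermis lists had none of 6, 7 and 5 regions. Beside them stand the leukocyte marker sums given above, where 6 of 9 H3K4me3 start regions were higher at 9 hpi and 7 at 18 hpi, while the H3K27Ac sum was 84.2 (control), 159.6 (9 hpi) and 104 (18 hpi). The part of cell composition in these results was not tested.

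The 357 regions that lacked H3K27me3 in control were mostly promoters (89.9%) with strong H3K4me3 throughout, over which an H3K27me3 interval was called after injury. Their median H3K4me3 average was 31.1 (control), 27.3 (9 hpi) and 27.9 (18 hpi). Called H3K4me3 intervals had a median of 30.8 (control), 28.8 (9 hpi) and 31.7 (18 hpi). H3K27me3 over the partner had a median of 6.44 (control), 8.96 (9 hpi) and 8.85 (18 hpi), median log2 changes of 0.38 at 9 hpi and 0.40 at 18 hpi, while called H3K27me3 intervals had a median of 9.06 (control), 9.73 (9 hpi) and 9.52 (18 hpi). The partner was above control at both times in 322 of the 357. At least 2-fold higher were 16 at 9 hpi and 17 at 18 hpi, 10 of them at both, beside 0.811% and 0.999% of all H3K27me3 regions, and nothing is read from that difference. With a pseudocount of 5 there were 5 at each time, and by maximum in place of average pileup 49 and 52. In 74 of the 357 the partner held a control interval outside the H3K4me3 region. Without these, 283 were left, of which 15 and 16 were 2-fold higher.

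Named by the smaller of the changes at both times, the greatest H3K27me3 gain was at rerea, a gene of a transcriptional co-regulator. A single H3K27me3 region with averages of 3.66 (control), 13.8 (9 hpi) and 12.9 (18 hpi) was the partner of 2 H3K4me3 regions on chromosome 23 (22953201 to 22958000 and 22974601 to 22981400). Both are far from the start of rerea, by 191811 and 214211 bp, and both carry a CpG island. H3K4me3 there was 44.1 (control), 30.2 (9 hpi) and 28.3 (18 hpi) in one and 38.5 (control), 34.8 (9 hpi) and 37.4 (18 hpi) in the other. At fbxo44 (chromosome 23, 16821601 to 16826400), an F-box protein gene, H3K27me3 was 7.59 (control), 23.1 (9 hpi) and 23.5 (18 hpi) over a partner of 27600 bp that holds a control interval outside the H3K4me3 region, while H3K4me3 was 27.6 (control), 26.1 (9 hpi) and 24.9 (18 hpi). At LOC572093, whose RefSeq symbol is nacc1b, H3K27me3 was 6.59 (control), 19.3 (9 hpi) and 25.3 (18 hpi), and H3K4me3, at 75.8 (control), 43.7 (9 hpi) and 36.9 (18 hpi), was lower at 18 hpi. At slc6a8, the creatine transporter gene, H3K27me3 was 10.1 (control), 22.0 (9 hpi) and 26.0 (18 hpi) and H3K27Ac 21.5 (control), 34.9 (9 hpi) and 20.0 (18 hpi). The H3K27me3 partner at slc6a8 was only 1400 bp long, beside an H3K4me3 region of 6000 bp. Its control average lay above 9.06, the median of called control H3K27me3 intervals, although no interval was called there. A region at nudt6 that also lists fgf2, the gene of fibroblast growth factor 2, had H3K27me3 of 4.67 (control), 16.6 (9 hpi) and 12.8 (18 hpi) beside H3K27Ac of 14.6 (control), 25.9 (9 hpi) and 11.0 (18 hpi) over a partner of only 200 bp. The others were dock6, tial1, hmgxb4a and ero1l, with log2 changes between 1.01 and 1.34. The listed distance to the start of ero1l was -5810 bp. In none of the 10 regions did the average of the H3K27Ac partner change by 2-fold.

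An H3K27Ac interval was called over nearly all of the 357 regions: in control 337 (94.4%) overlapped an interval, at 9 hpi 337 (94.4%) and at 18 hpi 325 (91.0%). Shares at each time over all H3K4me3 regions are not given beside these. Having a partner, which needs an H3K27Ac interval at any of the 3 times, was not particular to the 357 regions. An H3K27Ac partner was found for 349 of the 357 and for 16535 of all 18746 H3K4me3 regions. Where H3K4me3 intervals were called at all 3 times and H3K27me3 at none, 8481 of 8812 regions had one. Of the 349 partners of the 357 regions, 16 (4.58%, interval 2.64 to 7.34) were higher and 14 (4.01%) lower at 9 hpi. At 18 hpi 7 (2.01%) were higher and 28 (8.02%, interval 5.40 to 11.4) lower. In regions double-marked at all 3 times the shares were 12.6% higher and 2.97% lower at 9 hpi and 5.40% higher and 7.97% lower at 18 hpi. The 621 regions with an H3K27Ac partner that lost H3K27me3 intervals and kept those of H3K4me3 had 9.82% higher (interval 7.60 to 12.4) and 1.29% lower at 9 hpi. The difference between the regions that gained and those that lost H3K27me3 intervals was not tested. Over all 596 regions, 92 of the 501 with an H3K27Ac partner were higher at 9 hpi (18.4%) and 46 at 18 hpi (9.18%), against 11.5% and 3.61% of all H3K4me3 regions with a partner, and 15 and 30 were lower.

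The greatest H3K27Ac decreases all lay in regions that had lacked an H3K27me3 interval in control. Of 349 such regions with an H3K27Ac partner, 337 overlapped a control H3K27Ac interval, against 62 of 146 that had lacked H3K4me3. A 2-fold decrease needs signal in control, so nothing is read from where the decreases lay. At clu (chromosome 20, 39368601 to 39371400), the gene of the secreted chaperone clusterin, H3K27Ac was 23.3 (control), 6.33 (9 hpi) and 8.50 (18 hpi), H3K4me3 was 18.9 (control), 8.64 (9 hpi) and 11.1 (18 hpi), and H3K27me3 was 5.55 (control), 8.78 (9 hpi) and 8.65 (18 hpi). At elna (chromosome 15, 409001 to 416000), the gene of elastin, H3K27Ac was 14.2 (control), 4.74 (9 hpi) and 6.31 (18 hpi) and H3K4me3 17.6 (control), 7.11 (9 hpi) and 5.75 (18 hpi), both lower at both times, beside H3K27me3 of 6.29 (control), 8.62 (9 hpi) and 9.08 (18 hpi). At tfpia, the gene of a coagulation inhibitor, H3K27Ac was 15.8 (control), 6.49 (9 hpi) and 4.76 (18 hpi) and H3K27me3 6.48 (control), 10.4 (9 hpi) and 12.6 (18 hpi). At klf1, the gene of an erythroid transcription factor, H3K27Ac was 13.7 (control), 5.31 (9 hpi) and 4.29 (18 hpi). At lpar1, a receptor gene for lysophosphatidic acid, it was 28.5 (control), 12.0 (9 hpi) and 9.92 (18 hpi). The remaining ones, acsm3, chst3a, LOC795147 and LOC101886974, had averages between 3.47 and 7.84 after injury and between 14.1 and 17.1 in control. The LOC101886974 region lies 11714 bp from the gene start. By H3K27Ac, markers of some cell types moved with these decreases, and those of others did not. Over the H3K27Ac start regions of erythrocyte markers the summed average was 71.0 (control), 38.6 (9 hpi) and 21.2 (18 hpi), with 2 of 5 lower at 9 hpi and 5 of 5 at 18 hpi. Over those of fibroblast and tendon markers, dcn among them, it was 109 (control), 61.1 (9 hpi) and 67.6 (18 hpi), with 3 of 6 lower and 1 higher at each time. Over those of muscle markers the summed H3K27Ac average was 271 (control), 199.8 (9 hpi) and 122 (18 hpi). Of these 15 start regions, 6 were lower and 1 higher at 9 hpi, and 10 were lower at 18 hpi. By contrast the epidermis sum was 54.3 (control), 82.7 (9 hpi) and 74.1 (18 hpi), and the leukocyte sum was also above control at both times. The endothelium sum and the nerve and Schwann cell sum were above control at 9 hpi and below it at 18 hpi. By H3K4me3 the erythrocyte sum was 52.8 (control), 61.4 (9 hpi) and 35.3 (18 hpi), with 0 of 6 start regions lower at either time. The part of cell types in the decreases was not tested. In all 9 regions of greatest H3K27Ac decrease the H3K27me3 partner was above control at both times but under 2-fold higher. The rule favours this, since the partner was above control at both times in 322 of the 357 regions that lacked H3K27me3. Nothing is read from it. The fibroblast gene dcn, of the matrix proteoglycan decorin, had H3K4me3 of 20.4 (control), 7.79 (9 hpi) and 10.4 (18 hpi), lower at 9 hpi, and H3K27Ac of 15.8 (control), 10.1 (9 hpi) and 10.1 (18 hpi).

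**Figure D5:**
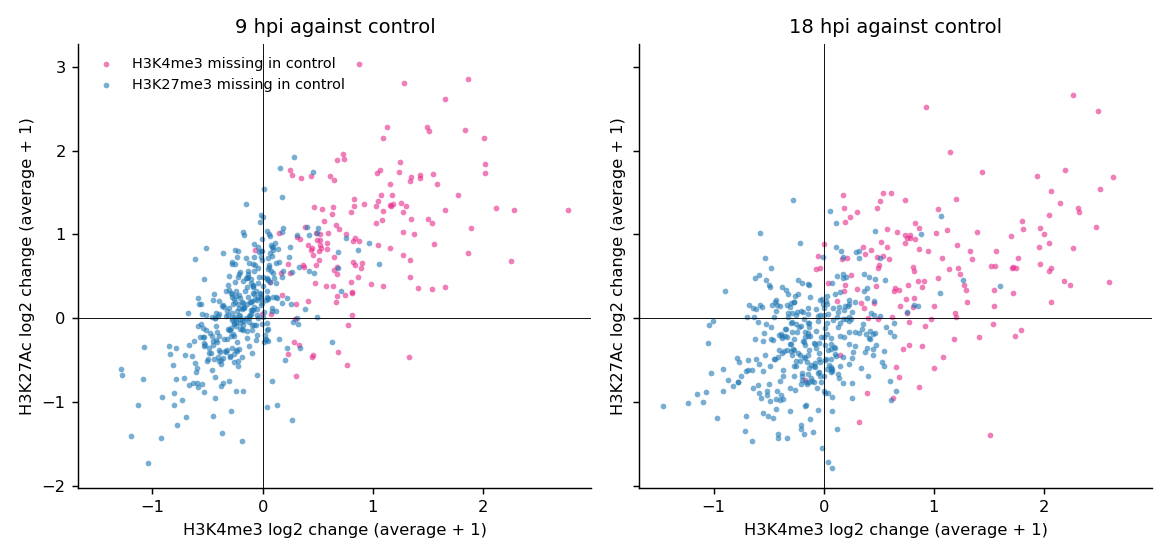
Log2 change of H3K27Ac (y axis) against that of H3K4me3 (x axis) at 9 hpi (left) and 18 hpi (right) over control, on pileup averages plus 1, for regions that lacked H3K4me3 (pink, n = 146) or H3K27me3 (blue, n = 349) in control and had an H3K27Ac partner; each point is a region. Pink points lie mostly in the upper right quadrant, by the rule for the x axis, and blue points spread around 0 on both axes.

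Within each class the changes of H3K4me3 and H3K27Ac went together across regions at 9 hpi, with a Spearman rho of 0.45 (Pearson r 0.43) over the 146 regions that lacked H3K4me3 and 0.59 (Pearson r 0.58) over the 349 that lacked H3K27me3. In regions double-marked throughout rho was 0.58. At 18 hpi rho was 0.20 and 0.26 in the regions that lacked H3K4me3 and H3K27me3 in control and 0.25 in those double-marked throughout. Between H3K27me3 and H3K27Ac at 9 hpi, rho was 0.01 where H3K4me3 had been missing, -0.16 where H3K27me3 had been missing and -0.14 in regions double-marked throughout. These are correlations across regions of 1 library per mark and time, taken from the same pools of tissue, and regions are not independent replicates.

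Signalling and inflammation lists showed both kinds of region. Of 142 regions at genes of Wnt, FGF, BMP, Notch, hedgehog and retinoid signalling, 9 were double-marked only after injury (6.34%, interval 2.94 to 11.7). The 5 that lacked H3K27me3 were ptch1, the hedgehog receptor, axin2, a Wnt feedback gene, the Wnt receptor genes fzd3b and fzd7b, and fgfr1b. At ptch1 H3K27me3 was 6.43 (control), 8.65 (9 hpi) and 8.83 (18 hpi) beside H3K4me3 of 87.0 (control), 75.4 (9 hpi) and 59.1 (18 hpi). None of these 5 partners changed by 2-fold. The 4 that lacked H3K4me3 were the ligand genes wnt2bb, fgf8a and ndr2 and the Wnt modulator gene dkk3b. In the list of inflammation and cytokine genes, 10 of 169 regions (5.92%, interval 2.87 to 10.6) qualified. Both intervals include 3.18%, the share of all regions. At cebpd, a transcription factor of the acute phase response, H3K27me3 was 11.3 (control), 19.8 (9 hpi) and 19.3 (18 hpi) beside H3K4me3 of 114 (control), 101 (9 hpi) and 81.3 (18 hpi). The control H3K27me3 average at cebpd lay above 9.06, the median of called control H3K27me3 intervals. At lifra, a receptor gene for interleukin-6 family cytokines, H3K27me3 was 4.73 (control), 8.11 (9 hpi) and 8.78 (18 hpi), and at nfkbib, which codes for an inhibitor of NF-kB, 8.69 (control), 8.74 (9 hpi) and 8.13 (18 hpi), with only 200 bp of the nfkbib region under an H3K27me3 interval at each later time and no base under both marks. The chemokine receptor gene ccr9a had H3K4me3 of 10.1 (control), 14.8 (9 hpi) and 22.1 (18 hpi) and H3K27Ac of 10.8 (control), 24.0 (9 hpi) and 13.5 (18 hpi). H3K27me3 intervals covered the whole 3600 bp of the ccr9a region at 9 and 18 hpi and none of it in control, but its partner of 17600 bp holds a control interval 1400 bp away, and the average over that partner was 7.38 (control), 7.72 (9 hpi) and 7.19 (18 hpi). At il15l H3K27Ac was 19.5 (control), 9.44 (9 hpi) and 8.13 (18 hpi).

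Genes of muscle and nerve function were counted in the same way. None of 99 regions at sarcomere and contraction genes was double-marked only after injury, an exact interval of 0 to 3.66% that includes the 3.18% of all regions, and 17 of them were double-marked at all 3 times. Of 140 regions at axon guidance and cell adhesion genes 10 qualified (7.14%, interval 3.48 to 12.7), with the greatest H3K4me3 signal at plxnb2a, a plexin gene, where H3K27me3 was 7.16 (control), 16.3 (9 hpi) and 13.3 (18 hpi), higher at 9 hpi only. Of 164 regions at ion channels and neurotransmitter receptors 4 qualified (2.44%, interval 0.668 to 6.13). At chrne, which codes for a subunit of the muscle acetylcholine receptor, H3K27Ac was 37.8 (control), 24.7 (9 hpi) and 17.2 (18 hpi), lower at 18 hpi, beside H3K27me3 of 6.41 (control), 7.59 (9 hpi) and 7.87 (18 hpi). Over the 15 H3K27Ac start regions of muscle markers the summed average was 271 (control), 199.8 (9 hpi) and 122 (18 hpi), and its part in the chrne value was not tested.

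The 9 regions that lacked both marks in control were short, between 600 and 2200 bp, and had weak signal. At itgae.2 (chromosome 15, 17252601 to 17254800), an integrin gene, H3K4me3 was 3.90 (control), 13.1 (9 hpi) and 20.9 (18 hpi) and H3K27Ac 8.65 (control), 31.6 (9 hpi) and 15.9 (18 hpi), while H3K27me3 was 6.41 (control), 5.73 (9 hpi) and 5.80 (18 hpi), averaged over a partner of 9200 bp that holds a control interval outside the H3K4me3 region. Another region lies 6969 bp from the start of LOC100334766, whose RefSeq symbol is mtus2b. Its H3K4me3 was 2.64 (control), 9.49 (9 hpi) and 12.6 (18 hpi) and its H3K27Ac 5.47 (control), 16.1 (9 hpi) and 15.1 (18 hpi). A region with no gene listed (chromosome 13, 38068601 to 38069400) had H3K4me3 of 4.80 (control), 11.8 (9 hpi) and 12.3 (18 hpi) and H3K27me3 of 6.09 (control), 10.0 (9 hpi) and 12.3 (18 hpi). In the region listed for LOC101884033, 19816 bp from its start, H3K4me3 was greatest before injury, with 15.2 (control), 13.6 (9 hpi) and 12.2 (18 hpi). The others, listed for LOC562421, il1rapl2, LOC103910244, si:ch211-195b13.1 and nanp, had H3K4me3 averages between 6.25 and 13.5 after injury and between 3.69 and 9.38 in control. The nanp region lies 5830 bp from the gene start.

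The longest regions were promoters with H3K4me3 at all times. They lay at ahnak (13400 bp), a large scaffold protein gene, at trim35-28 (13000 bp), at minpp1a and ier5, an immediate early response gene (12000 bp each), and at ddt (11800 bp). Only ddt had an H3K27me3 partner that was higher, at 5.81 (control), 13.5 (9 hpi) and 11.7 (18 hpi), and at 9 hpi alone. At trim35-28 H3K27me3 intervals covered only 1600 bp (9 hpi) and 1800 bp (18 hpi), and no base lay under both marks. A control H3K27me3 interval lay 1200 bp from that region.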

How the data were processed

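The 9 libraries were grouped by mark and time from the sample labels, 1 library per group; input was not analysed here. The submitters' processing notes list BWA, MACS2 2.1.0, SICER 12.1 and the build danRer10, without saying which tool made which list or at what threshold. The authors deposited 1 list of called intervals per library and 1 table per mark of regions merged over its 3 libraries. The deposited values are signal, the average and maximum tag pileup, with no ratio to input. How the authors scaled libraries is not stated, sequencing depth is unknown, and exact intervals of shares cover counting error only. Deposited columns of another kind give gene names, distances and annotated promoters and CpG islands. Every value column matched a sample (0 unmatched).

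Overlaps were computed in Python 3.11.15 with pandas 2.3.3 and numpy 2.4.6, and exact 95% (Clopper-Pearson) intervals with scipy 1.17.1. The partner of an H3K4me3 region was the region of the other mark with the longest overlap, and its average covers its whole length. A change is the log2 ratio of averages, injured over control, after adding a pseudocount of 1 to each, which understates weak regions, and 2-fold or more was called. No region was left out for low signal. The overlap and fold steps were tested on simulated data. No test was possible with 1 library per group.

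The regions and gene lists were chosen with earlier results of these data known. Named were the 10 greatest gains of each missing mark, all regions missing both, the 5 greatest rises and falls of H3K27Ac per time, the 5 longest, up to 6 per list with the gene start within 5000 bp, and the 3 nearest inside and outside the rule. RefSeq symbols (assembly GRCz12tu) were found for 511 of 571 genes, and used for names only. Coordinates are those of the files on danRer10, counted from 1. No sequence was used here.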

Additional observations from a re-analysis of the deposited data

How the results depend on the processing

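Of 81 alternatives, 63 kept their count within 1.5 times of that reported, or their share within its binomial interval, and 18 moved it. Accepting at 9 and 18 hpi only intervals at or above the 25th percentile of their list, with control lists as deposited, left 219 of 596 regions, 209 lacking H3K27me3 and 10 lacking H3K4me3 in control. With the same limit in all lists there were 460, 282 and 173. A pseudocount of 5 gave 5 and 5 regions with higher H3K27me3 (16 and 17 with a pseudocount of 1, at 9 and 18 hpi), 51 and 16 with higher H3K27Ac (92 and 46), and 3 and 10 with lower H3K27Ac (15 and 30). Among regions that lacked H3K4me3 it gave 41 and 14 with higher H3K27Ac (73 and 38) and 25 and 45 with higher H3K4me3 (78 and 82). The maximum in place of the average pileup gave 49 and 52 with higher H3K27me3, and 46 with lower H3K27Ac at 18 hpi. Centring gave 29 with lower H3K27Ac at 9 hpi. A gene start within 1000 bp of the middle, in place of an annotated promoter, held for 48.3% in place of 86.4%. The alternatives for regions that lacked H3K4me3, and the one that left out partners with a control interval (283 of 357), were chosen after seeing the data. The cause of these differences was not tested.

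An overlap of 200 bp changes nothing by construction, since intervals lie on a grid of 200 bp. No paired analysis was possible because each group has 1 library and no test was run, and leaving out a replicate was not possible for the same reason. The unknown depth limits all statements on weak intervals.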

Other observations

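Of 76 H3K4me3 regions whose nearest listed gene is a microRNA, 6 were double-marked only after injury (7.89%, exact interval 2.95 to 16.4, which includes the 3.18% of all regions). They were picked out after their values were seen, and nothing is read from their number. At mir21-2 (chromosome 15, 17432401 to 17438800), where vmp1 is also listed, H3K4me3 was 2.08 (control), 11.5 (9 hpi) and 14.2 (18 hpi), H3K27Ac was 5.46 (control), 20.5 (9 hpi) and 15.1 (18 hpi), and H3K27me3 was 9.62 (control), 8.99 (9 hpi) and 8.45 (18 hpi). Both H3K4me3 and H3K27Ac were higher at both times. At mir31 (chromosome 7, 73039201 to 73040200), H3K4me3 was 5.85 (control), 10.4 (9 hpi) and 15.0 (18 hpi), higher at 18 hpi, and H3K27Ac was 3.96 (control), 18.3 (9 hpi) and 6.52 (18 hpi), higher at 9 hpi. The region at mir132-2 had H3K4me3 of 11.0 (control), 15.3 (9 hpi) and 14.4 (18 hpi) and no H3K27Ac interval.

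The other microRNA genes had lacked H3K27me3 in control. At mir146a (chromosome 13, 11684001 to 11692400), H3K4me3 was 11.0 (control), 24.0 (9 hpi) and 27.8 (18 hpi), higher at both times, while H3K27me3 was 6.97 (control), 8.75 (9 hpi) and 7.94 (18 hpi), and at 18 hpi only 200 bp of the region lay under an H3K27me3 interval. At mirlet7g-1 H3K27me3 was 5.85 (control), 10.2 (9 hpi) and 6.35 (18 hpi), and at mir181c 7.99 (control), 9.99 (9 hpi) and 9.76 (18 hpi), neither higher by 2-fold.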
